A study of Caenorhabditis elegans with 12 samples.

Results

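JMJD-2 binding sites were mapped by ChIP-seq, which sequences the DNA fragments that an antibody pulls down with its target protein. All 816 peaks of the combined JMJD-2 list were taken, out of 7558 peaks in the lists of 6 proteins, and no peak was left out. The animals were whole wild-type larvae of the N2 strain at the L3 stage, the third larval stage, grown in liquid culture from starved, synchronized L1 larvae. JMJD-2 was recovered in 2 replicates with an antibody made for the study (Q3951). The other 5 proteins, SCC-1, SIN-3, ZFP-1, BLMP-1 and TOP-2, were recovered from larvae of the same strain and stage, each with its own antibody and in 2 replicates, which gives 12 samples. No mutant or treated animals are part of the comparison. The lists average over all tissues of the larva and do not show in which of them a site was bound.

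JMJD-2 belongs to the KDM4 family of JmjC-domain demethylases, enzymes that take methyl groups off histone H3 at lysine 9 and lysine 36. In the worm, loss of this enzyme raises trimethylation of these residues and triggers apoptosis in the germline. H3K9 methylation lies mainly on the distal arms of the autosomes, and H3K36 methylation over the bodies of active genes. Of the proteins it was set against, SCC-1 is the kleisin subunit of cohesin, the ring complex that holds chromatin strands together, and SIN-3 is a scaffold of histone deacetylase complexes. ZFP-1 is a zinc finger protein related to mammalian AF10, BLMP-1 is a zinc finger transcription factor related to mammalian BLIMP1, and TOP-2 is a type II topoisomerase.

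The list gives the position of each peak in ce10 and neither a height nor a P-value. The replicates had been combined before deposit, so the depth is unknown and the spread between replicates cannot be shown. Peaks are the counting units throughout, intervals are exact 95% intervals (Clopper-Pearson for shares, Poisson for densities), and tests are two-sided. For a count of 0, the share that 3 counts would give stands as the upper limit in place of the interval. They cover counting error over peaks only, and neighboring peaks may not be independent. A partner is a peak of another protein that shares at least 1 bp with the JMJD-2 peak. Genes and promoters at the peaks were not analysed here.

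JMJD-2 sites were densest on Chromosomes I and III and sparsest on Chromosome V. Chromosome III carried 144 peaks, or 10.4 per Mb (interval 8.81 to 12.3), and Chromosome I carried 155, or 10.3 per Mb (8.73 to 12.04). Chromosome V, the longest, carried 106, or 5.07 per Mb (4.15 to 6.13), and its interval lay below those of all other chromosomes. Chromosome II had 131 peaks at 8.58 per Mb, X had 148 at 8.37 per Mb and IV had 132 at 7.56 per Mb, with overlapping intervals. The low density on V was shared by the other lists, which had between 0.620 (TOP-2) and 0.796 (BLMP-1) of their own genome-wide density there, compared with 0.623 for JMJD-2. High ratios on I and III were shared as well, where JMJD-2 had 1.26 and 1.28. The other lists had between 1.16 (BLMP-1) and 1.36 (SCC-1) on I, except TOP-2 with 0.960. On III they had between 1.12 (BLMP-1) and 1.64 (SIN-3).

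**Figure D1:**
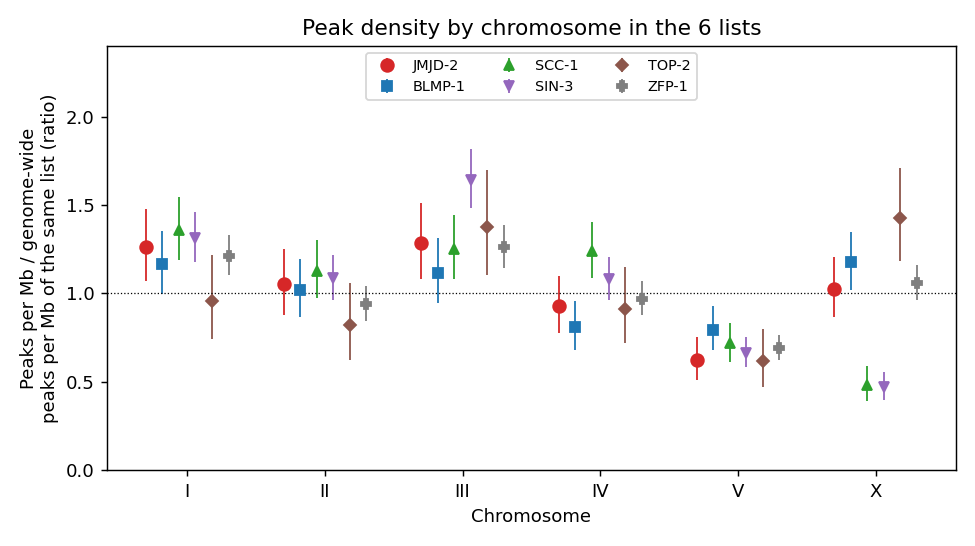
Ratio of the peaks per Mb on each chromosome to the genome-wide peaks per Mb of the same list, for the 6 lists; bars are exact 95% Poisson intervals and the dotted line marks a ratio of 1. JMJD-2 (red circles) is at 1.28 on III, 0.623 on V and 1.03 on X, where SCC-1 and SIN-3 fall to less than 0.49.

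On X, JMJD-2 kept its genome-wide density, unlike cohesin and SIN-3. X held 18.1% of the JMJD-2 peaks (15.6% to 21.0%) but 8.52% of SCC-1 peaks (Fisher's exact test, adjusted p = 1.12e-09, Benjamini-Hochberg over 5 lists) and 8.34% of the SIN-3 peaks (Fisher's exact test, adjusted p = 1.19e-11). The share was lower than that of TOP-2, 25.2% (Fisher's exact test, adjusted p = 0.00537). For ZFP-1, with 18.7%, and BLMP-1, with 20.8%, the test found no difference past the threshold (adjusted p = 0.755 and 0.212, Fisher's exact test; odds ratios 0.964 and 0.845). The lists share sites and are not independent. When peaks common to the JMJD-2 list and the list it was compared with were left out, each of these results stayed on its side of the threshold.

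Along the autosomes JMJD-2 sites were spread over arms and centers. The arms, taken as the outer 33.3% of the length at either end, held 425 of 668 autosomal peaks (63.6%). The left arms held 205 peaks, the centers 243 and the right arms 220, on equal lengths. No difference between JMJD-2 and another list passed the test (arm shares from 59.3% for BLMP-1 to 70.6% for TOP-2, smallest Fisher's exact test, adjusted p = 0.151 over 5 lists). This outcome depended on the limit. With arms of 25% at either end, the share was 46.0% for JMJD-2, above BLMP-1 (36.8%, adjusted p = 0.00202) and ZFP-1 (40.5%, adjusted p = 0.0242) and below TOP-2 (56.5%, Fisher's exact test, adjusted p = 0.00376).

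Single chromosomes differed in shape. On Chromosome I the density fell from 12.9 per Mb in the central part to 5.97 in the right arm, with 9, 7 and 9 peaks in its last 3 bins of 10% of the length. On Chromosome II the left arm was the sparse one, at 5.69 per Mb, compared with 10.2 in the right arm. On Chromosome III the density was 8.49 per Mb in the left arm and 12.6 in the right arm. X was marked by its ends, with 25 peaks in its first 10% and 26 in its last 10%. Between them, no bin of X held more than 17, and the fewest was 7. The first peak was chrX:59136-59396, with SCC-1 and BLMP-1, and the last chrX:17545494-17545753, with SIN-3. Of the X peaks 113 (76.4%) were in the outer 33.3% at either end. SCC-1, SIN-3 and TOP-2 also had between 77.6% and 78.9% of their X peaks there, and ZFP-1 and BLMP-1 70.3% and 70.1%. An even spread would leave 33.3% of the X peaks in the middle. The middle held 23.6% for JMJD-2 and between 21.1% and 22.4% for SCC-1, SIN-3 and TOP-2. ZFP-1, with 29.7%, and BLMP-1, with 29.9%, were closer to an even spread. BLMP-1 had 19 peaks in the first 10% of X and 17 in the last 10%, with up to 28 in a bin between them. ZFP-1 had 48 and 50, with up to 58 between them. For SCC-1 the counts were 21 and 9, with up to 12 between them. They were 27 and 15 for SIN-3, with up to 21 between them, and 18 and 15 for TOP-2, with up to 18. These shapes were read from the list after the fact and were not tested.

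**Figure D2:**
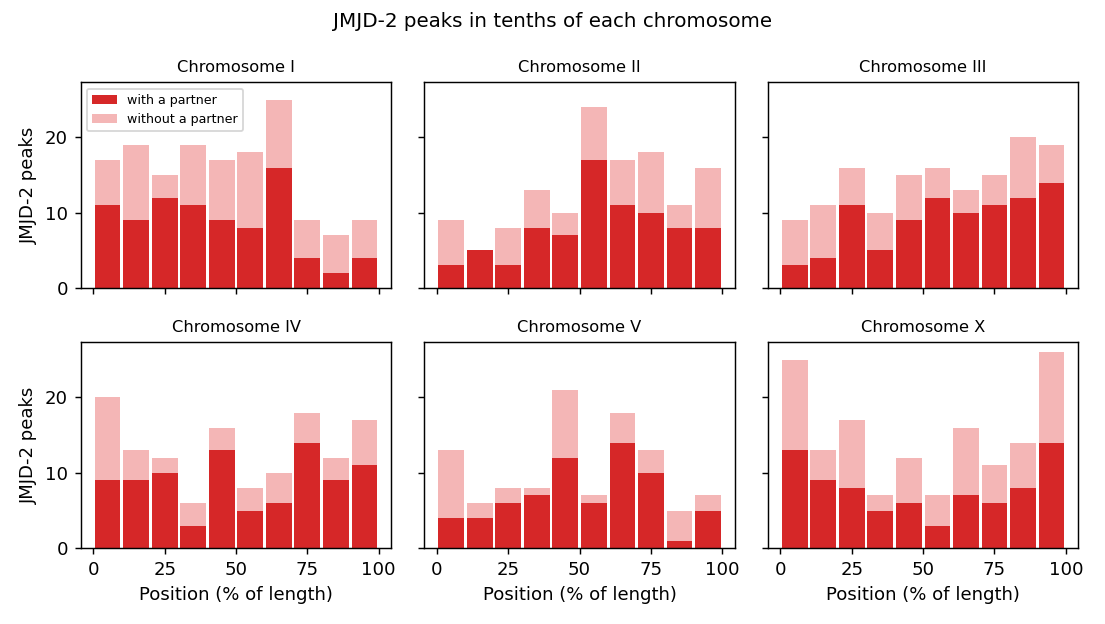
Number of JMJD-2 peaks in each bin of 10% of the length of the 6 chromosomes, split into peaks with a partner in at least 1 of the other 5 lists (dark) and without (light). X is highest in its first and last bin (25 and 26 peaks), and Chromosome I drops to 9, 7 and 9 in its last 3 bins.

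The richest 1-Mb window of each chromosome held between 14 and 21 JMJD-2 peaks. The highest was on X, chrX:1300001-2300000, with 21 peaks, of which 11 had a partner. On the autosomes the highest windows were chrI:8800001-9800000 with 20 peaks, chrII:8100001-9100000 with 19, chrIII:11000001-12000000 with 16, and chrIV:300001-1300000 and chrV:9300001-10300000 with 14 each. Partners were found at 15 of the 19 peaks in the window on II but at 5 of the 14 in the window on IV. As the richest windows these exceed the mean by construction. In 97 adjacent windows of 1 Mb that tile the genome, the count ran from 2 to 20 with a median of 7, and none was empty. The variance between windows was 1.99 times the mean, the lowest of the 6 lists, in which this ratio was between 2.36 and 4.62 for the other 5. Lists with more peaks have higher ratios when density varies, so list length and evenness cannot be told apart here, although TOP-2, with fewer peaks, was at 2.36. The longest stretch without a JMJD-2 midpoint was 1065 kb on V, from 16593983 to 17658998, followed by 778 kb on X (12664830 to 13442529), 765 kb on V (4827152 to 5592516) and 733 kb on X (8605177 to 9337946). The longest on I was 707 kb (10667127 to 11374445).

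Neighboring JMJD-2 sites lay a median of 70.8 kb apart (quartiles 22.1 and 164 kb, 810 distances between midpoints). The median was shortest on I, 54.5 kb, and longest on V, 106 kb, with 62.5 kb on X. The mean was 122 kb, above the median as in the other 5 lists. The median was 0.581 of the mean, compared with 0.526 (TOP-2) to 0.607 (SCC-1) in those lists. A second JMJD-2 midpoint within 1 kb was present for 46 peaks (5.64%), within 10 kb for 219 (26.8%) and within 50 kb for 514 (63.0%). Up to 20 kb these shares were the lowest of the 6 lists, also below TOP-2, which has fewer peaks but had 20.3% of them within 1 kb and 36.0% within 10 kb of another. SCC-1 and BLMP-1, nearest in list length, had 35.0% and 37.3% within 10 kb. No test was made of these shares, since they depend on the number of peaks.

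**Figure D3:**
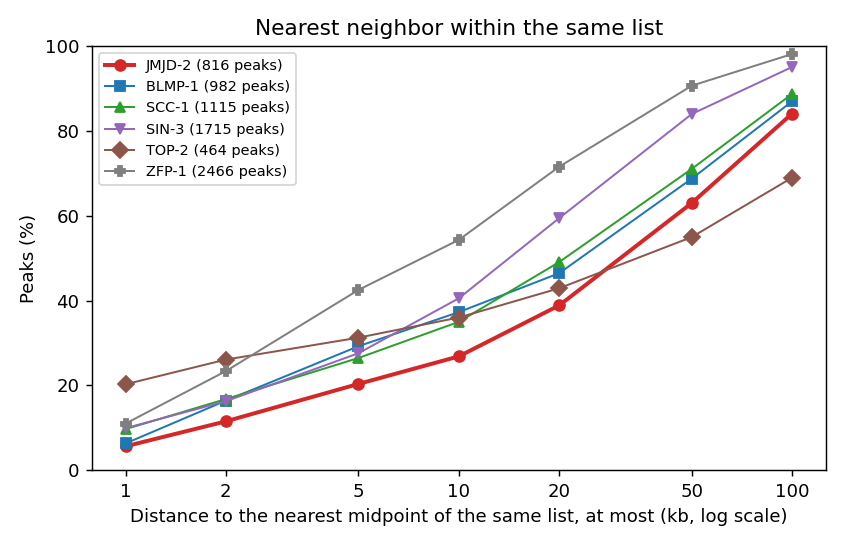
Percentage of peaks whose nearest midpoint of the same list lies within a given distance (log axis, 1 to 100 kb), for each of the 6 lists. JMJD-2 (thick red line) runs lowest up to 20 kb, at 5.64% within 1 kb and 38.8% within 20 kb.

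Most JMJD-2 peaks lay outside close groups. When midpoints at most 10 kb apart were chained, 597 peaks stood alone, 72 pairs formed and 21 groups were larger. The largest group was on X, from 1370975 to 1389702, with 6 peaks, of which 2 had a partner. At a limit of 2 kb the largest was on I, from 9380036 to 9383188, with 5 peaks, of which 2 had a partner. The closest midpoints were 302.5 bp apart, at chrIV:17279407-17279589 and chrIV:17279716-17279885. The next were 315 bp apart at chrIII:13296233-13296419, which overlapped ZFP-1, and chrIII:13296545-13296737, which overlapped SIN-3. At chrIII:65955-66163 and chrIII:66330-66530 the distance was 371 bp. The first and last of these pairs had no partner at either peak.

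JMJD-2 peaks had partners more often than the peaks of the other lists. At least 1 partner was found at 494 of 816 peaks (60.5%, interval 57.1% to 63.9%). Counted the same way, 36.0% of the 6742 peaks of the other 5 lists had a partner. By list the share was 56.8% for SCC-1 (53.8% to 59.7%), 43.8% for SIN-3, 32.3% for BLMP-1, 26.6% for ZFP-1 and 14.9% for TOP-2. The intervals of JMJD-2 and SCC-1 overlap. The counts were not tested against each other, because a shared site enters both lists and a short list is set against more peaks of others.

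SIN-3 and cohesin were the most frequent partners. A SIN-3 peak overlapped 302 JMJD-2 peaks (37.0%), an SCC-1 peak 290 (35.5%), a ZFP-1 peak 184 (22.5%), a BLMP-1 peak 64 (7.84%) and a TOP-2 peak 10 (1.23%). SCC-1, SIN-3 or both were present at 402 sites (49.3%). As shares of the partner's own list, JMJD-2 was found at 26.0% of SCC-1, 17.7% of SIN-3, 7.46% of ZFP-1, 6.52% of BLMP-1 and 2.16% of TOP-2 peaks.

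Where JMJD-2 overlapped a partner, the peak centers lay close together, closest with cohesin. The median distance between midpoints was 9 bp for SCC-1 (quartiles 3.5 and 16.5 bp, 290 overlaps) and 96.2% were at most 50 bp apart. The median was 15 bp for SIN-3, 20.75 bp for ZFP-1, 32.75 bp for BLMP-1 and 55 bp for TOP-2. BLMP-1 peaks are wider (median 336 bp compared with 246 bp for JMJD-2) and were called by another program, and TOP-2 rests on 10 overlaps. Among all 15 pairs of the 6 lists, JMJD-2 with SCC-1 had the smallest median distance, followed by SCC-1 with SIN-3 at 11 bp.

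Beyond the shared peak, partner density dropped within 0.5 kb. From 0 to 0.25 kb around JMJD-2 midpoints, SCC-1 midpoints were 63.9 times as dense as over the genome, SIN-3 43.2, ZFP-1 18.3, BLMP-1 15.8 and TOP-2 5.29 times. From 0.25 to 0.5 kb the ratios were 2.86 for SCC-1, 2.58 for SIN-3, 2.29 for ZFP-1, 2.12 for TOP-2 and 0.750 for BLMP-1. From 1 to 2 kb, SCC-1 was still at 2.92 and SIN-3 at 2.15, and from 20 to 50 kb all 5 were between 0.917 and 1.104. Some distances rest on few peaks (3 BLMP-1 and 4 TOP-2 midpoints from 0.25 to 0.5 kb).

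Partners came in combinations. Of the 816 peaks, 322 had none of the 5 partners, 244 had 1, 160 had 2, 74 had 3 and 16 had 4. No peak had all 5, which allows a share of up to 0.368% (3 counts of 816). The most frequent combination was SCC-1 with SIN-3 and no other, at 106 peaks. Next were SIN-3 alone (87), SCC-1 alone (81), ZFP-1 alone (62) and SCC-1 with SIN-3 and ZFP-1 (54). Of the 16 peaks with 4 partners, 15 lacked only TOP-2 and 1, on X, lacked only BLMP-1. Among the former were chrI:8816441-8816679, chrII:10174366-10174629, chrIII:3068015-3068257 and chrIV:654777-655046 (ce10). These 4 peaks were between 239 and 270 bp wide, and the median of all JMJD-2 peaks was 246 bp.

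At JMJD-2 peaks the presence of SCC-1 went with that of SIN-3. Of JMJD-2 peaks with SCC-1, 65.5% (190 of 290) also held SIN-3, compared with 21.3% (112 of 526) of those without SCC-1 (odds ratio 7.02, Fisher's exact test, adjusted p = 1.03e-34, Benjamini-Hochberg over 10 pairs of partners). BLMP-1 and ZFP-1 formed the next pair. ZFP-1 was found at 53.1% of the 64 JMJD-2 peaks with BLMP-1 and at 19.9% of those without (odds ratio 4.55, Fisher's exact test, adjusted p = 1.18e-07). ZFP-1 was also more frequent with SIN-3 (30.5% compared with 17.9%, adjusted p = 0.000146) and with SCC-1 (29.3% compared with 18.8%, adjusted p = 0.00212), and SCC-1 was with BLMP-1 (54.7% compared with 33.9%, adjusted p = 0.00310; all by Fisher's exact test). With midpoints at most 500 bp apart as the criterion, SCC-1 with ZFP-1 no longer passed (29.3% compared with 22.2%, Fisher's exact test, adjusted p = 0.0565). BLMP-1 with SIN-3 did not pass (Fisher's exact test, adjusted p = 0.0509) but did on the autosomes alone (adjusted p = 0.0212). None of the 4 pairs with TOP-2 passed (adjusted p from 0.483 to 0.750, Fisher's exact test), with TOP-2 at 10 peaks in all. Chromatin accessibility at these sites was not analysed here.

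Seen from the partners, sites that held JMJD-2 were richer in other proteins than those that did not. SCC-1 peaks with JMJD-2 overlapped SIN-3 in 65.5% of cases (interval 59.7% to 71.0%), and the other 825 SCC-1 peaks in 34.9% (31.7% to 38.3%). SIN-3 peaks with JMJD-2 overlapped SCC-1 in 63.0% of cases and the others in 20.3%. Among ZFP-1 peaks, SCC-1 was present at 46.2% of those with JMJD-2 and 3.64% of those without, and among BLMP-1 peaks at 56.3% and 2.94%. TOP-2 was found at 1.63% of ZFP-1 peaks with JMJD-2 and 2.15% of those without, with overlapping intervals. These shares were picked out after the values were seen and are given without a test. For its contact analyses the paper removed intervals occupied by many factors, which it describes as possibly unspecific binding or ChIP artifacts. No such filter was applied to the shares given here.

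On X the partners of JMJD-2 changed. SCC-1 was present at 34 of 148 X peaks (23.0%, interval 16.5% to 30.6%) and at 256 of 668 autosomal peaks (38.3%, 34.6% to 42.1%; odds ratio 0.480, Fisher's exact test, adjusted p = 0.00250, Benjamini-Hochberg over 6 comparisons). SIN-3 was present at 28.4% of X peaks and 38.9% of autosomal peaks (odds ratio 0.622, Fisher's exact test, adjusted p = 0.0370). The SIN-3 difference no longer passed when 50% of the shorter peak had to be shared (27.7% and 37.3%, Fisher's exact test, adjusted p = 0.0582). ZFP-1 went the other way, with 31.8% on X and 20.5% on the autosomes (odds ratio 1.80, Fisher's exact test, adjusted p = 0.0136). BLMP-1 (6.76% and 8.08%, adjusted p = 0.735) and TOP-2 (2.70% and 0.898%, Fisher's exact test, adjusted p = 0.107) did not pass. Any partner was found at 53.4% of X peaks and 62.1% of autosomal peaks, and the difference did not pass (Fisher's exact test, adjusted p = 0.0771). In the other 5 lists together 35.2% of X peaks and 36.1% of autosomal peaks had a partner. The lists enter this pool unevenly, with ZFP-1 giving 461 of 1020 peaks on X and 2005 of 5722 on autosomes. The pooled shares therefore do not show how partner frequency differs within a list.

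X lay outside the range of the 5 autosomes for each of these 3 partners. SCC-1 shares ran from 32.9% on I to 41.7% on IV, and X had 23.0%. SIN-3 shares ran from 33.5% on I to 47.0% on IV, and X had 28.4%. ZFP-1 shares ran from 13.0% on II to 24.3% on III and 33 of 132 peaks on IV, and X had 31.8%. The contrast was sharpest for peaks with 1 partner. SCC-1 alone was found at 3 X peaks (2.03%) and 78 autosomal peaks (11.7%), and ZFP-1 alone at 22 X peaks (14.9%) and 40 autosomal peaks (5.99%). These single-partner classes were chosen after seeing the values and were not tested. Within X, SCC-1 shares in the outer parts and the middle were 23.9% and 20.0%, and ZFP-1 shares 30.1% and 37.1%, with overlapping intervals on 113 and 35 peaks.

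The direction depended on which list was counted. SCC-1 and SIN-3 have few peaks on X, and of those few more held JMJD-2. JMJD-2 was present at 34 of 95 SCC-1 peaks on X (35.8%, interval 26.2% to 46.3%) and at 25.1% of those on autosomes (Fisher's exact test, adjusted p = 0.0459, Benjamini-Hochberg over 5 lists). For SIN-3 the shares were 29.4% on X and 16.6% on autosomes (odds ratio 2.09, Fisher's exact test, adjusted p = 0.00165). For ZFP-1 they were 10.2% and 6.83% (Fisher's exact test, adjusted p = 0.0448). The SCC-1 and ZFP-1 results no longer passed when 50% of the shorter peak had to be shared (adjusted p = 0.0536 for both, Fisher's exact test). BLMP-1 and TOP-2 did not pass (adjusted p = 0.342 for both, Fisher's exact test). By either count with 1 bp shared, ZFP-1 and JMJD-2 shared sites more often on X. For SCC-1 and SIN-3 the lower share of JMJD-2 peaks went with fewer peaks of these proteins on X.

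**Figure D4:**
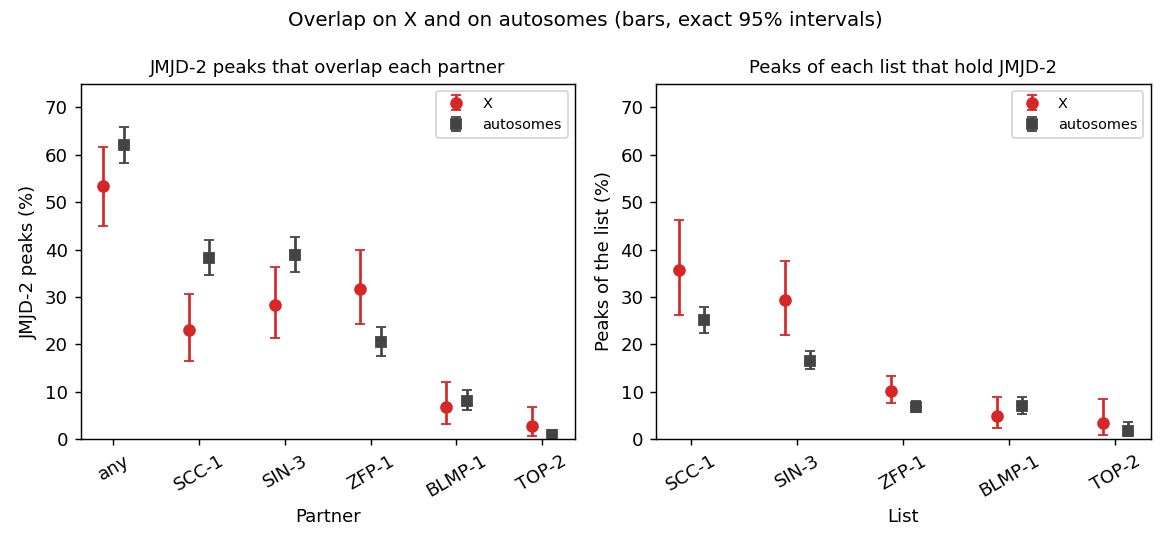
Left, percentage of JMJD-2 peaks on X (red circles) and on autosomes (dark squares) that overlap any partner or each partner; right, percentage of each other list's peaks that hold JMJD-2. Bars are exact 95% intervals. SCC-1 is at 23.0% on X and 38.3% on autosomes on the left, and at 35.8% and 25.1% on the right.

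Between autosome arms and centers no difference in partners passed the test at the 33.3% limit. Any partner was found at 60.7% of 425 arm peaks and 64.6% of 243 central peaks, SCC-1 at 38.4% and 38.3%, SIN-3 at 37.9% and 40.7%, and ZFP-1 at 17.9% and 25.1% (adjusted p from 0.172 to 1.00, Fisher's exact test over 6 comparisons). TOP-2 was present at 6 arm peaks and at 0 of 243 central peaks, which allows a share of up to 1.23% (3 counts of 243; Fisher's exact test, adjusted p = 0.275). With arms of 25% at either end, fewer arm peaks had any partner (57.0% compared with 66.5%, adjusted p = 0.0276), SCC-1 (33.9% and 42.1%, adjusted p = 0.0469) and SIN-3 (33.9% and 43.2%, adjusted p = 0.0276), and more had TOP-2 (1.95% and 0, adjusted p = 0.0276; all by Fisher's exact test).

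The 322 JMJD-2 peaks without a partner were spread over all chromosomes, from 37 on V to 69 each on I and X. They made up 46.6% of the X peaks and between 32.6% (IV) and 44.5% (I) of the autosomal ones. The nearest peak of any other protein was a median of 4.36 kb away (quartiles 1.71 and 9.82 kb). It was within 1 kb for 51 of them, and more than 20 kb away for 28. The most remote was chrX:11361164-11361440, 53.7 kb from any other peak. No run of such sites was longer than 6 consecutive peaks. There were 4 runs of this length, on I from 5608870 to 6499558 and from 13055611 to 13800933, on III from 65955 to 1076835 and on IV from 1101130 to 1344153. The longest run of peaks with a partner had 12, on II from 8062302 to 8684195. A peak next to one with a partner had a partner itself in 63.6% of cases, and next to one without in 55.5%.

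Over all chromosomes together, partner shares differed past the threshold only at the closest JMJD-2 spacing. Of 219 peaks with another JMJD-2 midpoint within 10 kb, 58.4% had a partner, and of the other 597 61.3% (p = 0.468, Fisher's exact test). Of the 94 peaks with one within 2 kb, however, 46.8% had a partner (interval 36.4% to 57.4%), compared with 62.3% of the rest (odds ratio 0.532, p = 0.00487, Fisher's exact test), a limit chosen after the values were seen. On X this was 9 of 29 such peaks (31.0%) and on the autosomes 35 of 65 (53.8%). Within 5 kb, which includes these peaks, it was 13 of 38 on X (34.2%) and 80 of 128 on the autosomes (62.5%). The splits by chromosome were not tested. Peaks with another within 2 kb made up 19.6% of X peaks and 9.73% of autosomal peaks, so position on X and close spacing went together.

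JMJD-2 peaks were wider on X than elsewhere. The median width was 259.5 bp on X (quartiles 245 and 282 bp, 148 peaks) and 245 bp on the autosomes (234.75 and 254 bp, 668 peaks). On the 5 autosomes the medians ran from 243 to 246 bp. Of the X peaks 78 (52.7%, interval 44.3% to 61.0%) were among the widest 25% of the list, above 257 bp, compared with 18.9% (16.0% to 22.0%) of autosomal peaks and between 18.1% and 22.6% on any of the 5 autosomes. In the other lists the median on X exceeded that on autosomes by 4 bp for SCC-1 and by at most 1 bp for SIN-3, ZFP-1, TOP-2 and BLMP-1. X peaks with and without a partner had medians of 260 and 259 bp. The widest peak was chrX:16205748-16206290, 543 bp, without a partner, followed by chrIV:13884389-13884819, 431 bp, with SCC-1 and SIN-3. The narrowest were chrV:13967764-13967872, 109 bp, and chrV:9089126-9089237, 112 bp, both without a partner. The width on X was noticed in the data and was not tested.

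**Figure D5:**
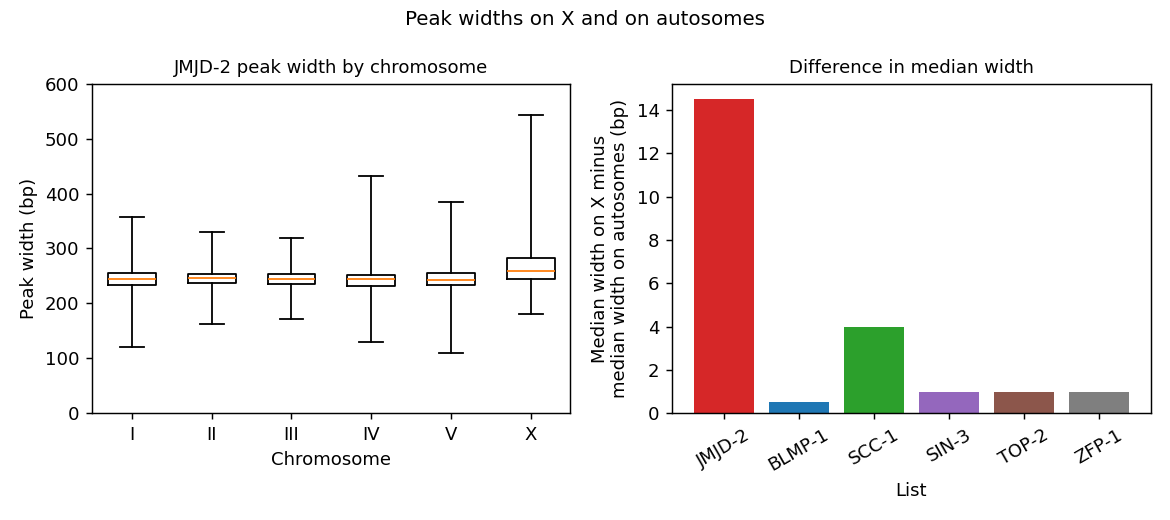
Left, width of JMJD-2 peaks by chromosome (box, quartiles and median; whiskers, narrowest and widest peak); right, median width on X minus median width on autosomes in each of the 6 lists. The JMJD-2 median is 259.5 bp on X and 243 to 246 bp on the autosomes, a difference of 14.5 bp from all autosomal peaks together, compared with 0.5 to 4 bp in the other lists.

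Over all chromosomes, wide JMJD-2 peaks had a partner less often than narrow ones. Of 403 peaks above the median width 56.8% had a partner, and of the other 413 64.2% (odds ratio 0.735, p = 0.0377, Fisher's exact test). On the autosomes alone, with their own median, the shares were 59.1% and 64.9% (p = 0.129, Fisher's exact test), and without peaks of 3 or more partners they were 53.0% and 58.1% (p = 0.179, Fisher's exact test). Neither difference passed the threshold. Over all chromosomes, the widest 25% set against the rest did pass (odds ratio 0.561, p = 0.000497, Fisher's exact test). Midpoints at most 500 bp apart (p = 0.00896) and 50% of the shorter peak shared (p = 0.0233) also passed by Fisher's exact test. So did merging of close peaks (p = 0.0392) and leaving out BLMP-1 as partner (p = 0.0156, Fisher's exact test). The settings that passed all include the X peaks. In the widest 25% of peaks 27.0% had SCC-1 and 29.9% SIN-3, compared with 42.3% and 43.3% in the narrowest 25%, whereas ZFP-1 was at 21.1% and 24.0%. These shares of single partners were not tested and were not split by chromosome. Of the 204 widest peaks 78 were on X and 126 on the autosomes, so the shares in the widest 25% mix peaks of both.

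Across the 97 windows of 1 Mb, JMJD-2 counts followed those of SIN-3 and SCC-1 most closely (Spearman's rho 0.50 for both, Pearson's r 0.41 for both), then ZFP-1 (0.35 and 0.38), BLMP-1 (0.29 and 0.24) and TOP-2 (0.15 and 0.12). Shared sites are counted in both lists. With these left out, rho fell to 0.26 for SIN-3, 0.22 for SCC-1 and ZFP-1, 0.20 for BLMP-1 and 0.12 for TOP-2. Pearson's r was then highest for ZFP-1 (0.20), followed by BLMP-1 (0.17), SIN-3 (0.16), SCC-1 (0.14) and TOP-2 (0.085). Without shared sites the order of the lists thus depended on the measure. The windows are neighbors along chromosomes, so these values describe the map and carry no test.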

How the data were processed

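ChIP-seq peak lists of 6 proteins in wild-type L3 larvae were used, 1 list per protein. The authors aligned reads to ce10, called peaks in each replicate with YAPC (MACS2 for BLMP-1) and merged the replicates by IDR at P = 0.01. BWA and MACS2 are the tools listed in the submitters' processing notes for every sample, and the methods of the study were followed here. Their versions are not given in the sources used. The deposited values are peak start and end positions, with no score, so no stricter peak threshold could be tried. Each chromosome was measured from base 1 to the last base under a peak of the 6 lists. Coordinates are counted from 1.

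Shares of peaks were compared with Fisher's exact test. P-values were adjusted by the Benjamini-Hochberg method within each family, at a threshold of 0.05. Sites named are the richest 1-Mb window (steps of 100 kb) and longest gap per chromosome, the widest, narrowest and closest peaks, those with most partners, and the longest runs. The first and last peak of X were added by the same rule. Members, sites and tests were chosen with earlier results of these data known. The procedure was tested on simulated data. No ce10 sequence or annotation was used here. Tests ran in scipy 1.17.1 (Python 3.11.15), with tables in pandas 2.3.3, arrays in numpy 2.4.6 and plots in matplotlib 3.10.9. Alternatives were other overlap criteria, merging of close peaks, other limits, and leaving out shared sites or BLMP-1.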

Additional observations from a re-analysis of the deposited data

How the results depend on the processing

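The 39 comparisons were repeated 154 times in all with 1 choice changed. In 136 of these neither the call nor the direction of a called difference changed, 11 newly passed the threshold and 6 no longer passed. In 1 a difference that had not passed changed its sign and newly passed. Differences below are in percentage points. With arms of 25% at either end, the arm share of JMJD-2 minus that of BLMP-1, TOP-2 and ZFP-1 became 9.20, -10.5 and 5.41. The partner share in arms minus centers became -9.48 for any partner, -9.34 for SIN-3 and 1.95 for TOP-2. All of these newly passed. For SCC-1 it became -8.23 and newly passed, with the sign changed from 0.0813, which had not passed. With midpoints at most 500 bp apart, X minus autosomes newly passed for TOP-2 (2.86), and SCC-1 with ZFP-1 no longer passed (7.13). With 50% of the shorter peak shared, SIN-3 on X minus autosomes no longer passed (-9.57), nor did JMJD-2 at SCC-1 (11.1) and ZFP-1 peaks (2.94), whereas BLMP-1 with SIN-3 did (15.6), as it did with peaks under 1 kb apart merged (14.7) and on autosomes alone (18.1). Close peaks passed at 2 kb (-15.5). Wide minus narrow peaks no longer passed without peaks of 3 or more partners (-5.08) or on autosomes alone (-5.88). The settings at 2 kb and on autosomes alone were chosen after seeing the data. The causes were not tested. No paired analysis was possible because each list combines its 2 replicates, and for the same reason no replicate could be left out.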
